A study of Mus musculus with 14 samples.

Results

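The Kruppel-like factors described here are 9 genes, Klf2, Klf3, Klf4, Klf6, Klf7, Klf9, Klf10, Klf13 and Klf15, of 27099 genes counted in RNA from Nes-GFP+ bone marrow stromal cells (BMSCs). They were selected on their own measured levels in these libraries, by leukemia and by GFP level, with Klf6 foremost. Their levels and differences are therefore a description with no test. All 9 passed the filter on low counts, and the 6 other Kruppel-like factors that were counted are set beside them. AML cells came from primary iMLL-AF9 mice, which carry the reverse tetracycline transactivator rtTA and the human MLL-AF9 oncogene under a doxycycline-responsive element, and which received doxycycline until a high white blood cell count showed leukemia. Normal mice received sucrose water as vehicle, so leukemia and doxycycline cannot be told apart. All mice carried a GFP reporter driven by Nes regulatory elements, and GFP+ CD45- CD31- DAPI- cells were sorted after red cell lysis into a Nes-GFP high population, described by the study as arteriolar, and a Nes-GFP low population, described as sinusoidal. There were 2 AML and 2 normal libraries of Nes-GFP high cells, and 4 AML and 6 normal libraries of Nes-GFP low cells. Ages of these mice are not in the labels, and some libraries are pools of mice without a statement of which, so that the spread between libraries may be partly technical.

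Kruppel-like factors are transcription factors that bind CACCC and GC-rich elements through zinc fingers near their C terminus, whereas their N-terminal parts differ and recruit different partners. One branch, with Klf2, Klf4, Klf6 and Klf7, mostly activates transcription. Klf3 recruits the corepressor CtBP, and Klf9, Klf10 and Klf13 recruit Sin3 corepressor complexes. Several of these genes respond quickly to signals. Klf2 and Klf4 lie downstream of MEKK3 and ERK5 in endothelium, Klf6 was described as an early response gene after injury, Klf9 and Klf15 are induced by glucocorticoids, and Klf10 was first described as a TGF-beta inducible early gene in osteoblasts.

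Total counts ranged from 5615941 to 11436652 per library. Levels are CPM, counts scaled to the library size after TMM normalization. Normal Nes-GFP high replicate 1 stood apart, with 14842 genes detected against 18177 to 20197 in the other 13 libraries. In Nes-GFP high libraries, Nes itself stood at 32.3 and 26.7 CPM for AML and at 2.27 and 36.0 CPM for normal mice, and it was at 5.7 CPM or less in every Nes-GFP low library. The 14 marrow stromal markers, which include Cxcl12, Lepr and Col1a1, had a count in every library, but their summed level ranged from 986.4 to 84070 CPM. The 14 myeloid markers, such as Lyz2 and S100a8, summed to 95650 CPM in AML Nes-GFP low replicate 3 and to 102600 and 51090 CPM in normal Nes-GFP low replicates 3 and 4, although CD45+ cells had been gated out, and to 756 to 34070 CPM elsewhere. The 9 endothelial markers that were counted summed to 1.36 to 80.9 CPM.

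Upstream sequences are shown for Klf6, the pair Klf2 and Klf4, and Klf15, and not for Klf9, whose pattern is described as closely, or the other genes. They come from RefSeq (GRCm38.p6), 5′ to 3′ on the gene's strand, and cover up to 250 bases before the start site without bases of an annotated exon. The table used here matched 8 of the 9 genes, all but Klf10. Capitals mark the E-box CACGTG, the element bound by clock and other basic helix-loop-helix factors.
Klf6 upstream, chr13:5861239-5861481, plus strand: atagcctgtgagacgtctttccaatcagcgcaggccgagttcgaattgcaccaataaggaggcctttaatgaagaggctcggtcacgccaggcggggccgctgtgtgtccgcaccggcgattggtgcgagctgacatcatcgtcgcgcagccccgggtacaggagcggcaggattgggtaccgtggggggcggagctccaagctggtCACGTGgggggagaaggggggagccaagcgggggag
Klf2 upstream, chr8:72318812-72319032, plus strand: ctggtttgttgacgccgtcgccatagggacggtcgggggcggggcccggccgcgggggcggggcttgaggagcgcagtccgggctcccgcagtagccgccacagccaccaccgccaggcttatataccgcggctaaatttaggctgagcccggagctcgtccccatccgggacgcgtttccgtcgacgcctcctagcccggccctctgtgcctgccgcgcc
Klf4 upstream, chr4:55532476-55532725, minus strand: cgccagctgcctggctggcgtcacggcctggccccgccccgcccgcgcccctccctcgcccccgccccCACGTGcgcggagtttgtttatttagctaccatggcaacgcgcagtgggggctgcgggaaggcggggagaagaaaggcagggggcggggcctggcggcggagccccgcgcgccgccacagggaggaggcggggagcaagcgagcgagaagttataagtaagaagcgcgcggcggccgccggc
Klf15 upstream, chr6:90462326-90462575, plus strand: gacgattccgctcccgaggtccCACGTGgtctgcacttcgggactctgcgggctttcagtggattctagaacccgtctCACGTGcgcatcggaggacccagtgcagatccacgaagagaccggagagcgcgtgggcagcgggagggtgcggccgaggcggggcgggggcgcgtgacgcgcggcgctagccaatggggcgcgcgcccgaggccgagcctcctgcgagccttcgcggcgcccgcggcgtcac
Motifs were searched in the whole windows of 250 bases, exon bases included. The E-box was present in 3 of the 8 windows, those of Klf4, Klf6 and Klf15, all among the printed ones, and in 6.02% of 32851 RefSeq promoter windows of that length. The GC box GGGCGG was present in 7 of 8 windows, all but that of Klf9, and in 32.7% of all windows. The CACCC box, a class of element that Kruppel-like factors themselves bind, was present in 6 of 8 windows, all but those of Klf4 and Klf6, and in 52% of all windows. The CACCC match of Klf2 lies in the exon bases left out of its printed stretch. Neither the cyclic AMP response element TGACGTCA, found in 1.55% of all windows, nor the CArG box, found in 1.47%, was present in any of the 8. Both strands were searched and matches were allowed to overlap. A match shows only that these letters are present.

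Per kilobase of exon, Klf2 was the most abundant of the 9 genes in 14 of 14 libraries, with a mean of 111.7 CPM per kilobase and 24.6% to 59.4% of the summed level of the 9 genes. Klf6 followed with a mean of 39.4 CPM per kilobase and was among the highest 3 in 11 of 14 libraries. Klf4 had a mean of 37.3 and Klf10 of 28.0 CPM per kilobase, and their ranges over libraries overlapped that of Klf6. Klf9, Klf13 and Klf15 had means of 17.9, 15.8 and 11.4 CPM per kilobase. The lowest means were those of Klf3 with 7.26 and of Klf7 with 4.13 CPM per kilobase.

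**Figure D1:**
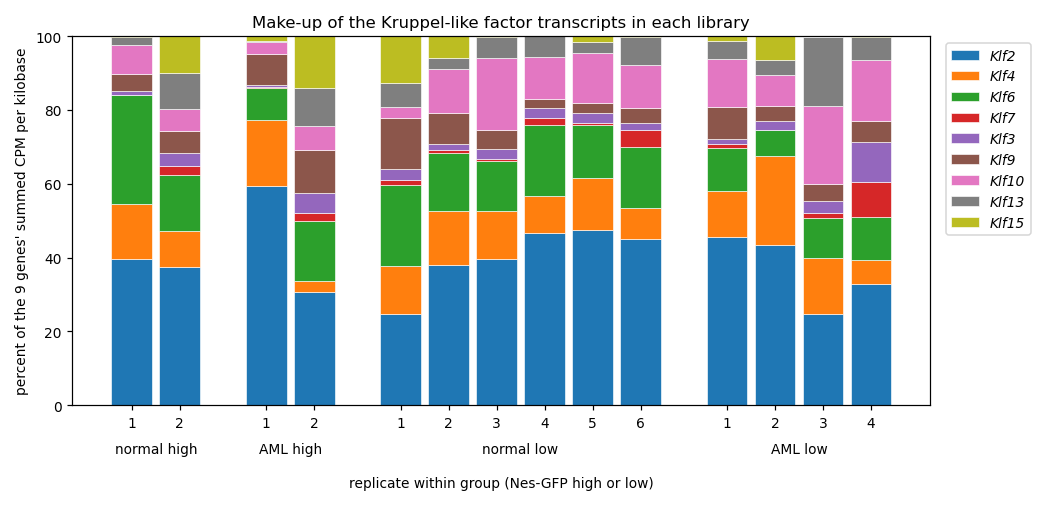
Share of each Kruppel-like factor in the summed CPM per kilobase of the 9 genes, in percent, with 1 bar per library. Klf2 is the largest part of every bar, and the Klf6 part runs from 6.87% to 29.4%.

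Klf6, a ubiquitous zinc finger activator (chromosome 13, 5861482 to 5870394, plus strand), had the smallest spread within groups of the 9 genes. Among Nes-GFP high cells, the normal libraries held 289.2 and 260.1 CPM and the AML libraries 172.6 and 146.7 CPM. Among Nes-GFP low cells, it ran from 122.0 to 246.4 CPM with a median of 192.0 CPM in the 6 normal libraries. The 4 AML libraries of Nes-GFP low cells held 141.0, 118.8, 109.4 and 72.8 CPM. After TMM, all normal Nes-GFP high libraries were thus above all others, and the groups of Nes-GFP low cells overlapped.
By mean, the order was normal high (274.7 ± 20.6 CPM, SD, n = 2), normal low (184.7 ± 47.4, n = 6), AML high (159.6 ± 18.3, n = 2) and AML low (110.5 ± 28.4, n = 4). Normal low and AML high, neighbours in this order, overlapped. AML high and AML low were parted by 141.0 and 146.7 CPM, a gap smaller than either SD.

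In AML, the fitted level of Klf6 was lower by a log2 fold change of -0.78 (SE 0.51) in Nes-GFP high and of -0.74 (SE 0.34) in Nes-GFP low cells. Each AML library was below each normal library in 4 of 4 pairings of Nes-GFP high and in 22 of 24 pairings of Nes-GFP low libraries. The difference between these effects was -0.04 (SE 0.60). Klf6 was higher in Nes-GFP high than in low cells by 0.57 (SE 0.40) in normal and by 0.53 (SE 0.43) in AML mice, with no overlap of libraries in either after TMM. Scaled to library totals without TMM, the libraries overlapped in both. In normal mice, Nes-GFP high replicate 2 was then at 212.1 and Nes-GFP low replicate 1 at 221.9 CPM. In AML mice, the replicates of the same names were at 135.5 and 148.4 CPM. These comparisons share groups and are not independent of each other. Without the 3 libraries richest in myeloid markers, the AML values were -0.79 in Nes-GFP high and -0.70 in Nes-GFP low cells. Klf6 also varied little within groups. Its within-group SD was 0.36 on the log2 scale, against a median of 1.36 over 10760 genes that averaged 10 CPM or more. Only 1% of these had a smaller one. They were not matched in level to the members, which were chosen on their own levels.

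**Figure D2:**
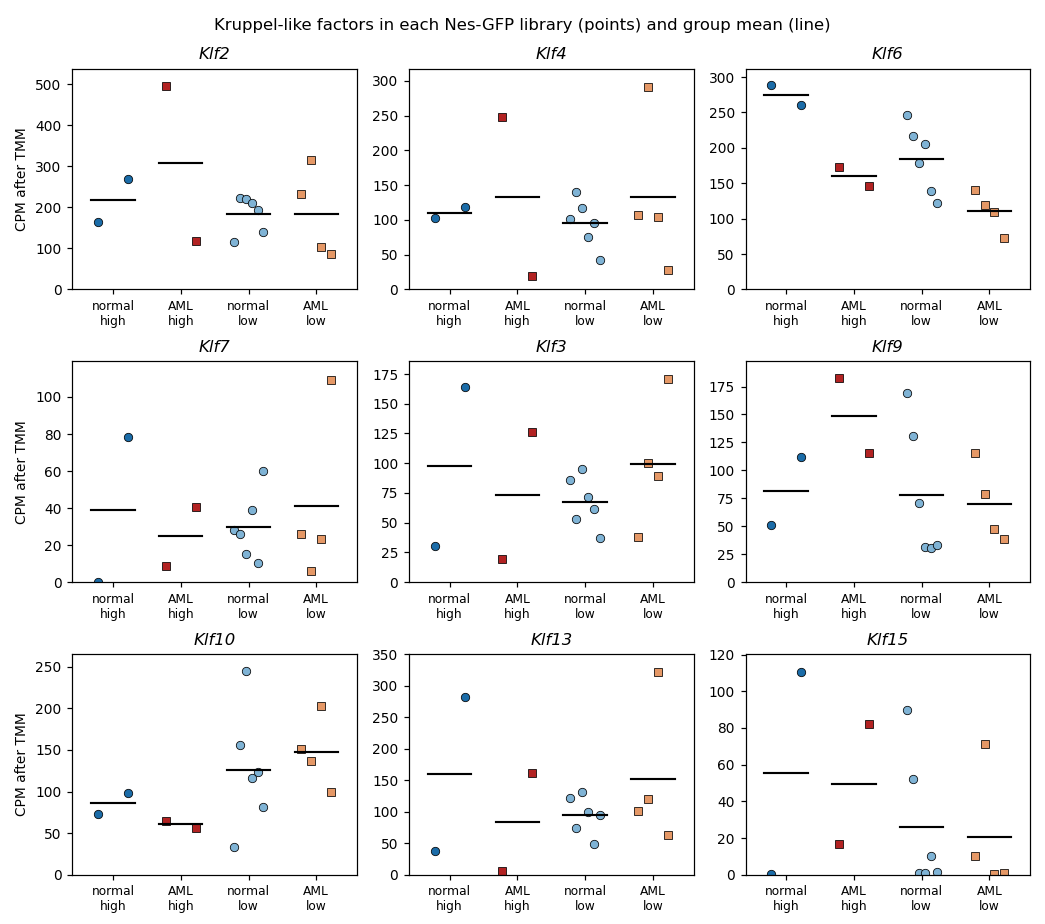
CPM after TMM of each Kruppel-like factor (vertical axes from 0, one panel per gene) in the 14 libraries, with points for libraries and lines for group means. In the Klf6 panel the normal Nes-GFP high points, 289.2 and 260.1 CPM, lie above all other points, while in the Klf2, Klf4, Klf13 and Klf15 panels libraries of 1 group lie far apart.

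Across the 14 libraries, Klf6 had a Spearman coefficient of 0.79 with the summed level of the stromal markers, against -0.43 (Klf10) to 0.33 (Klf9) for the other 8 genes. These points share groups and libraries, and the coefficients carry no test. The sum is dominated by the type I collagen genes Col1a1 and Col1a2 in some libraries. They made up 89.6% of it in normal Nes-GFP high replicate 1, 71.6% in normal Nes-GFP low replicate 4 and 62.7% in AML Nes-GFP high replicate 1, and 14.3% to 48.4% elsewhere. With the sum of the other 12 markers the coefficient of Klf6 was 0.59, and with the median marker it was 0.57, no higher than those of Klf7 (0.60) and Klf15 (0.59). Taken singly, Col1a1 gave 0.85 and Col1a2 0.80, the highest values. Angpt1 gave 0.75, Vcam1 0.64, Kitl 0.61, Cxcl12 and Pdgfra 0.60 each, and Adipoq 0.58. Lower values were those of Lepr (0.46), Grem1 (0.42), Pdgfrb (0.32), the collagen gene Col3a1 (0.31), Ebf3 (0.23) and Foxc1 (0.14). The closeness of Klf6 to the marker sum thus depended in part on Col1a1 and Col1a2.
The Nes-GFP high marker sums were 84070 and 64600 CPM for normal, and 6614 and 44900 CPM for AML mice. In the AML libraries of Nes-GFP low cells the sum was 33980, 3163, 986.4 and 8510 CPM, and in the normal ones it ran from 6441 to 73210 CPM. By the median marker, normal Nes-GFP high replicate 1, the library highest in Klf6, stood at 157.5 CPM, close to AML Nes-GFP low replicate 4 with 154.7 CPM, the library lowest in Klf6. The former is the library with the fewest genes detected, 14842, and some markers were near 1 CPM there, such as Pdgfrb (0.883) and Ebf3 (1.51). The part of this in its median marker was not tested. AML Nes-GFP low replicate 1 and AML Nes-GFP high replicate 2 had median markers of 657.4 and 849.5 CPM with 141.0 and 146.7 CPM of Klf6. Among normal libraries, Nes-GFP low replicate 2 had a median marker of 843.1 CPM with 216.1 CPM of Klf6, and Nes-GFP low replicate 4 one of 159.0 CPM with 204.9 CPM of Klf6. Whether fewer stromal cells per library or less Klf6 RNA per cell gave the lower Klf6 level cannot be told apart in bulk RNA. In AML, 13 of the 14 markers had a lower fitted level in Nes-GFP high cells (median log2 fold change -0.85, against 0.08 over all genes tested) and 14 of 14 in Nes-GFP low cells (median -1.32, against 0.00341). In either comparison edgeR called 0 of them and 0% of all genes. Col1a1 had an edgeR adjusted p of 0.482 in Nes-GFP high cells. The part of stromal content in the Klf6 difference was not tested.
The 11 lymphoid markers that were counted, such as Ighm and Cd79b, also went with Klf6, with a coefficient of 0.64 for their sum. Their sums in Nes-GFP high cells were 8.05 and 143.1 CPM for AML, and 325.5 and 231.0 CPM for normal mice, without overlap. In Nes-GFP low cells they ran from 84.7 to 175.0 CPM in AML and from 87.6 to 1732 CPM in normal libraries. The immunoglobulin gene Ighm and Ebf1, a gene that stromal cells also express, had the highest means of the list, 270.8 and 91.3 CPM. Of the 9 markers tested, 7 had a lower fitted level in AML Nes-GFP high and 8 in AML Nes-GFP low cells. In either comparison edgeR called none of them and 0% of all genes. The part of lymphoid RNA in the Klf6 level was not tested.

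**Figure D3:**
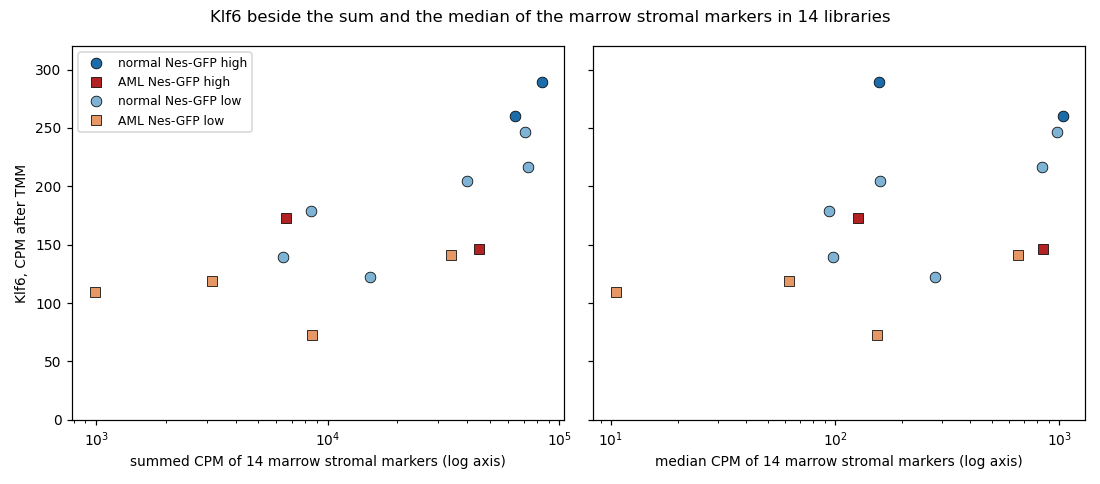
Klf6 (vertical axis, CPM after TMM, from 0) against the sum (left) and the median (right) of the CPM of 14 marrow stromal markers (horizontal log axes), with 1 point per library and colours for the 4 groups. The library highest in Klf6, at 289.2 CPM, has the largest sum, 84070 CPM, but a median marker of 157.5 CPM, next to the library lowest in Klf6, and the coefficient is 0.79 with the sum and 0.57 with the median.

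The genes most like Klf6, by Spearman coefficient over the 14 libraries among 10751 genes averaging 10 CPM or more, were the histone gene Hist1h2bc (0.912), the metalloproteinase gene Adamts7 (0.903) and the osteocalcin gene Bglap2 (0.886). Vkorc1 (0.873), Bglap (0.864), Bglap3 (0.864), Selm (0.859), Col1a1, Pir and Arsi (each 0.855) were also among these 11 genes, a number that includes ties. Col1a1 is also among the stromal markers. Osteocalcin is a bone matrix protein made by osteoblasts, and reads of Bglap, Bglap2 and Bglap3, which are near-identical copies, may be split between them. Bglap ranged from 10.1 CPM in AML Nes-GFP low replicate 2 to 7935 CPM in normal Nes-GFP high replicate 1. Over all candidates, 8.34% had a coefficient above 0.5. The list depended on single libraries: 3 to 9 of the 11 genes remained when 1 library was left out, 3 of them without normal Nes-GFP high replicate 1.

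Klf2 and Klf4 are activators best known as flow-responsive genes of endothelium and, for Klf4, of pluripotent and myeloid cells. Klf2 (chromosome 8, 72319033 to 72321656, plus strand) had 496.7 and 118.0 CPM in Nes-GFP high cells of AML mice, and 164.7 and 269.8 CPM in those of normal mice. For Nes-GFP low cells it was 232.3, 315.1, 104.3 and 85.5 CPM in AML and 115.8 to 223.3 CPM, with a median of 202.0 CPM, in normal libraries. The AML libraries spanned the normal ones on both sides in either population.
Klf4 (chromosome 4, 55527143 to 55532466, minus strand) had 247.6 and 19.0 CPM in the AML libraries of Nes-GFP high cells, and the normal ones had 102.3 and 118.1 CPM. Levels in Nes-GFP low cells were 106.5, 291.8, 104.5 and 28.7 CPM in AML and 42.6 to 140.7 CPM, with a median of 98.0 CPM, in normal libraries. The same AML libraries were high or low for both genes, AML Nes-GFP high replicate 1 and AML Nes-GFP low replicate 2 at the top and AML Nes-GFP low replicate 4 near the bottom.
The Spearman coefficient of Klf2 with Klf4 was 0.80 over 14 libraries, the highest of 36 among the 9 genes. With the 28 immediate early genes, such as Fos and Egr1, it was 0.61 for Klf4, its highest with any gene list outside the Kruppel-like factors, and 0.51 for Klf2. Klf2 had its highest, 0.67, with the 16 clock genes described under Klf15, and 0.48 with the 10 heat shock genes. The sums of the immediate early genes were highest in AML Nes-GFP high replicate 1 (44690 CPM), the library highest in Klf2, and in normal Nes-GFP low replicate 1 (36500 CPM), which had the lowest Klf2 level of the normal Nes-GFP low libraries, 115.8 CPM. Such genes also rise during tissue digestion, and their part in the Klf2 and Klf4 levels was not tested. The AML differences of Klf2 were 0.50 (SE 0.75) in Nes-GFP high and 0.005 (SE 0.48) in Nes-GFP low cells. Those of Klf4 were 0.27 (SE 1.05) and 0.48 (SE 0.67). Without AML Nes-GFP high replicate 1 the values in Nes-GFP high cells were -0.90 for Klf2 and -2.55 for Klf4.

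The genes of the upstream MEKK3, ERK5, MEF2 and CCM group gave 4 of 10 higher and 6 of 10 lower fitted levels in AML Nes-GFP high cells and 8 higher and 2 lower in AML Nes-GFP low cells. In either comparison edgeR called none of them and 0% of all genes. Map2k5, which encodes the kinase MEK5 that activates ERK5, had 0.372 and 0.314 CPM in Nes-GFP high cells of AML mice, 25.9 and 7.80 CPM in those of normal mice and 0.978 to 85.9 CPM in AML Nes-GFP low cells. Its edgeR adjusted p was 0.269 for AML against normal and 0.314 for high against low cells in AML mice.

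Klf7 (chromosome 1, 64029447 to 64122282, minus strand), the remaining activator, was the least abundant per kilobase and ranged from 0 CPM in normal Nes-GFP high replicate 1 to 109.3 CPM in AML Nes-GFP low replicate 4. Its AML differences were -0.66 (SE 1.83) in Nes-GFP high and 0.46 (SE 1.17) in Nes-GFP low cells. With the summed level of 10 heat shock genes its coefficient was -0.82.

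Klf3 (chromosome 5, 64803388 to 64832901, plus strand), the CtBP-binding repressor, ranged from 19.4 CPM in AML Nes-GFP high replicate 1 to 171.1 CPM in AML Nes-GFP low replicate 4. It was higher in AML in 18 of 24 pairings of Nes-GFP low libraries, by 0.57 (SE 0.61), and lower in 3 of 4 pairings of Nes-GFP high libraries, by a fitted -0.42 (SE 0.95). Without normal Nes-GFP high replicate 2 the latter became 1.22. Klf3 varied with Klf13 across libraries (coefficient 0.63).

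Klf9 (chromosome 19, 23141226 to 23168134, plus strand) is a Sin3-binding factor and a direct target of the glucocorticoid receptor. The AML libraries of Nes-GFP high cells held 182.5 and 115.4 CPM, and the normal ones 50.7 and 111.8 CPM. Its Nes-GFP low levels were 115.3, 79.0, 47.9 and 38.3 CPM in AML and 30.7 to 169.3 CPM, with a median of 52.2 CPM, in normal libraries. The AML libraries lay above the normal ones in Nes-GFP high cells, by a narrow gap, and overlapped them widely in Nes-GFP low cells. The fitted AML differences were 0.87 (SE 0.93) and -0.15 (SE 0.60). In AML mice, Nes-GFP high exceeded low cells by 1.09 (SE 0.77), with a gap of 115.3 to 115.4 CPM between the groups. Without TMM these groups overlapped, with 106.6 CPM in AML Nes-GFP high replicate 2 and 121.4 CPM in AML Nes-GFP low replicate 1.
Klf9 followed the summed level of the 12 glucocorticoid response genes, which include Errfi1, Cebpd and Fkbp5, with a coefficient of 0.91. This was higher than with any of the other 14 lists and the largest of the 135 computed between the 9 genes and 15 lists. The sum of the glucocorticoid response genes in Nes-GFP high cells was 5013 and 2759 CPM for AML, and 1797 and 2662 CPM for normal mice. It was 2084, 3160, 1427 and 992.7 CPM in AML and 1025 to 4176 CPM in normal Nes-GFP low cells. The libraries highest for the list, AML Nes-GFP high replicate 1 and normal Nes-GFP low replicate 1, were also the highest for Klf9. Single list genes differed, with 913.9 and 1237 CPM of Errfi1 but 339.1 and 14.7 CPM of Fkbp5 in these libraries, in that order. Fkbp5 stood at 296.1 CPM in AML Nes-GFP low replicate 3, where Klf9 was at 47.9 CPM. The coefficient is that of the sum, and none was computed for single list genes. In AML Nes-GFP high cells 11 of 12 list genes had a higher fitted level (median 1.37, against 0.08 over all genes tested), whereas in AML Nes-GFP low cells 7 were higher and 5 lower (median 0.24, against 0.00341). In either comparison edgeR called 0 of them and 0% of all genes. Fkbp5, a cochaperone of the glucocorticoid receptor, had 339.1 and 71.98 CPM in the AML libraries of Nes-GFP high cells, and the normal ones had 0 and 3.69 CPM, with an edgeR adjusted p of 0.267. Klf9 also followed the immediate early genes (0.74) and the clock genes (0.70), so that these lists are not told apart by it.

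Klf10 (chromosome 15, 38291463 to 38300706, minus strand), the TGF-beta inducible member, was the member with the lowest level in Nes-GFP high cells of AML mice relative to Nes-GFP low cells. Its Nes-GFP high libraries held 64.8 and 56.3 CPM for AML, and 73.5 and 98.1 CPM for normal mice. Its Nes-GFP low libraries held 151.0, 136.9, 202.8 and 98.9 CPM for AML, and 33.5 to 244.8 CPM with a median of 119.8 CPM for normal mice. Both AML Nes-GFP high libraries were below all AML Nes-GFP low ones, a difference of -1.28 (SE 0.68), and below both normal Nes-GFP high ones, a difference of -0.50 (SE 0.74). In normal mice the difference of high from low cells was -0.55 (SE 0.62), and it became -0.19 without the 3 libraries richest in myeloid markers, which include the library highest in Klf10.

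Klf13 (chromosome 7, 63886351 to 63938915, minus strand), known as an activator of Ccl5 in lymphocytes, ranged from 5.70 CPM in AML Nes-GFP high replicate 1 to 321.2 CPM in AML Nes-GFP low replicate 3, a library rich in myeloid markers. Libraries of 1 group lay far apart, with 5.70 and 160.8 CPM for AML, and 36.9 and 281.3 CPM for normal mice, in Nes-GFP high cells. Its AML difference of -0.93 (SE 1.20) in Nes-GFP high cells became 1.13 without normal Nes-GFP high replicate 2.

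Klf15 (chromosome 6, 90462576 to 90475238, plus strand), a glucocorticoid and clock-controlled regulator of metabolism, was the most variable member within groups, with an SD of 2.77 on the log2 scale, and 99.2% of genes had a smaller one. The Nes-GFP high libraries had 16.5 and 81.9 CPM for AML, and 0.252 and 110.3 CPM for normal mice. The Nes-GFP low libraries had 10.3, 71.1, 0.277 and 1.14 CPM for AML, and 89.9, 52.0, 0.709, 0.826, 10.4 and 1.42 CPM for normal mice. Levels of 50 CPM or more and levels near 1 CPM thus occurred side by side in 3 of the 4 groups.
The summed level of 16 clock genes, such as Nr1d1, Per1 and Bhlhe40, went with Klf15 with a coefficient of 0.83. The 5 libraries with more than 50 CPM of Klf15 had clock gene sums of 799.1 to 1035 CPM, and the libraries under 2 CPM had sums of 275.6 to 587.8 CPM. The highest clock gene sum, 1399 CPM, was however that of AML Nes-GFP high replicate 1, which had 16.5 CPM of Klf15. AML Nes-GFP low replicate 1 and normal Nes-GFP low replicate 5, with 10.3 and 10.4 CPM of Klf15, had sums of 735.2 and 374.7 CPM. The time of day of collection is not given in the sources used here, and its part was not tested. With the myeloid markers the coefficient was -0.75. The 4 libraries lowest in Klf15, at 0.252 to 0.826 CPM, were also the 4 with the highest myeloid sums, 34070 to 102600 CPM, and the part of these markers was not tested. The AML differences of Klf15 were -0.17 (SE 2.59) and -0.32 (SE 1.68).

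**Figure D4:**
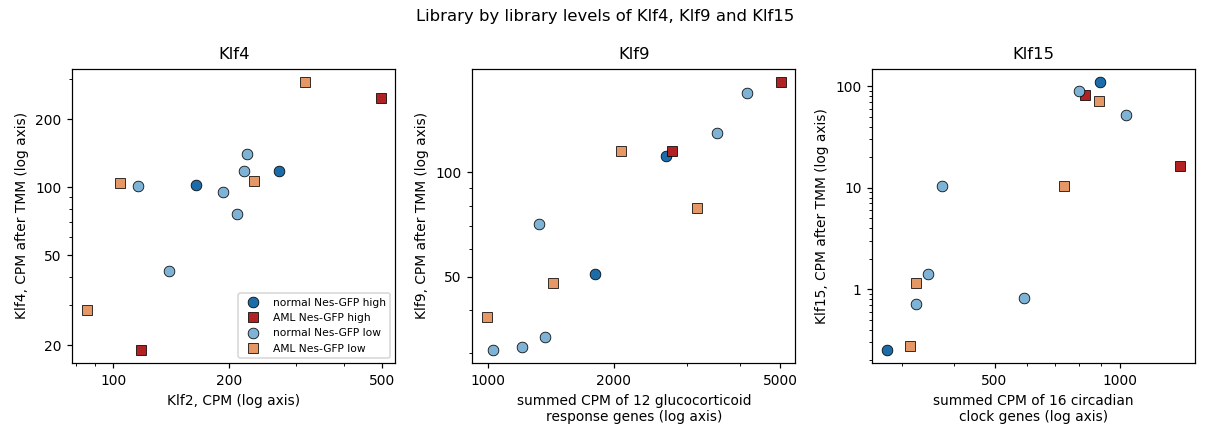
Levels in CPM after TMM, on log axes, of Klf4 against Klf2, Klf9 against the summed CPM of 12 glucocorticoid response genes and Klf15 against the summed CPM of 16 clock genes, with 1 point per library coloured by group. Points of all groups mix along each trend, the library with the highest clock gene sum, 1399 CPM, has 16.5 CPM of Klf15, and the Spearman coefficients are 0.80, 0.91 and 0.83.

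Counted over the 9 genes, fitted levels in AML were higher for 3 and lower for 6 in Nes-GFP high cells (median -0.42, against 0.08 over all 18152 genes tested), and higher for 6 and lower for 3 in Nes-GFP low cells (median 0.23, against 0.00341). For Nes-GFP high against low cells, 8 were higher and 1 lower in normal mice (median 0.39, against -0.27) and 5 higher and 4 lower in AML mice (median 0.00478, against -0.11). The counts over all genes are given beside these, and nothing is read from the members' share because their levels chose them. In AML against normal Nes-GFP high cells the groups did not overlap for Klf9 among higher genes, as for 16% of all genes, nor for Klf6 and Klf10 among lower genes, as for 11.5%. In Nes-GFP low cells no member was without overlap, against 0.441% of all genes for higher and 0.667% for lower levels. For high against low cells these shares were 3.47% higher (Klf6) and 7.86% lower (no member) in normal mice, and 6.91% higher (Klf6 and Klf9) and 8.83% lower (Klf10) in AML mice. All these shares are of CPM after TMM, and without TMM Klf6 and Klf9 overlapped between high and low cells. With edgeR, 0% of all genes passed an adjusted p of 0.05 in any of the 4 comparisons. The genes at an unadjusted p under 0.05 numbered 1384 higher and 825 lower in AML Nes-GFP high cells, 480 and 526 in AML Nes-GFP low cells, 382 and 1660 for high against low cells in normal mice and 453 and 1176 in AML mice. DESeq2 called 9.59%, 0.84%, 10.2% and 6.82% of the genes it tested in these comparisons, in the same order.

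**Figure D5:**
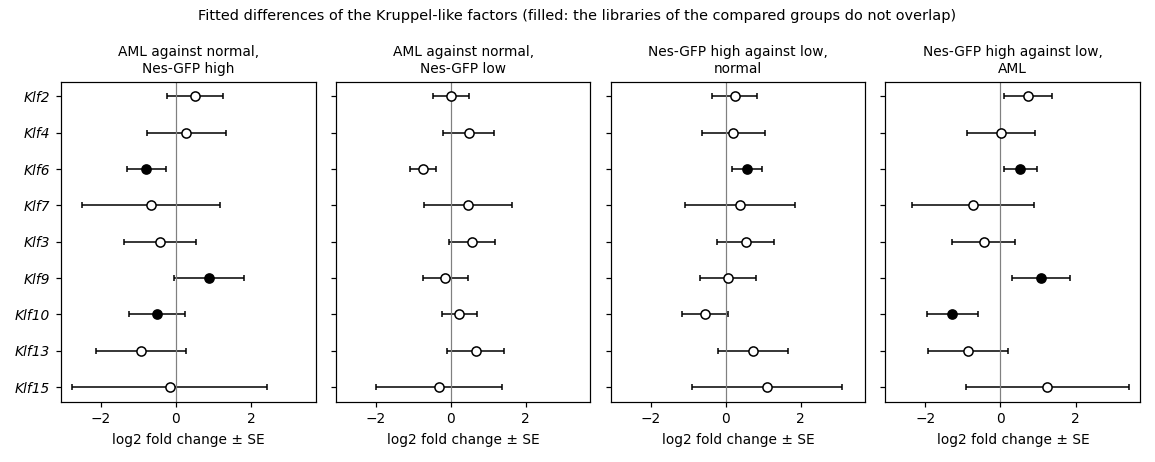
Log2 fold change with its standard error (horizontal axis) of each Kruppel-like factor in the 4 comparisons, from the fit of all 14 libraries, with filled points where the libraries of the groups do not overlap in CPM after TMM. Klf6 lies left of 0 in both AML comparisons, at -0.78 and -0.74, and right of 0 in both comparisons of GFP level, at 0.57 and 0.53.

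Of the 6 other Kruppel-like factors, Klf1, Klf5 and Klf16 did not overlap between AML and normal Nes-GFP high cells. Klf16, a Sin3-binding member, held 23.3 and 33.0 CPM in AML against 0 and 0.993 CPM in normal libraries, and 1.63 to 33.5 CPM in Nes-GFP low cells. Its log2 fold change was 5.80 (SE 1.70), with an adjusted p of 0.279 by edgeR and of 0.000394 by DESeq2. Klf11 (0.248 and 47.7 against 0 and 1.70 CPM) and Klf5 (31.2 and 11.9 against 0.126 and 0.709 CPM) were also low in both normal Nes-GFP high libraries. Such low levels occurred in Nes-GFP low cells too, where Klf11 ran from 0.322 to 54.6 CPM and Klf5 from 0 to 27.9 CPM. Klf8 reached 48.8 CPM in AML Nes-GFP high replicate 1 and 2.96 CPM at most elsewhere, and Klf12 reached 40.6 CPM in AML Nes-GFP high replicate 2 and 2.84 CPM at most elsewhere. DESeq2 called Klf12 in AML against normal Nes-GFP high cells (adjusted p of 2.27e-07), a call that rests on that library alone, while edgeR gave an adjusted p of 0.371. In the same comparison DESeq2 also called Klf1, lower in AML (adjusted p of 0.0488, against 0.436 by edgeR). For high against low cells, it called Klf11, Klf12 and Klf16 lower in normal mice (adjusted p of 0.0144, 1.43e-06 and 0.0001345) and Klf1 lower in AML mice (0.0163), where Klf1 was at 392.1 CPM in AML Nes-GFP low replicate 4 and at 1.11 CPM or less in the other AML libraries. The Klf12 call in normal mice is near the floor, with 0 CPM in both Nes-GFP high libraries and 2.84 CPM at most in the low ones. For it edgeR gave an adjusted p of 0.514. DESeq2 called no other of these 6 genes in the 4 comparisons, and edgeR called none of them. Klf1, the erythroid member, ran from 0.619 to 443.4 CPM. It exceeded 200 CPM in AML Nes-GFP low replicate 4 and normal Nes-GFP low replicates 5 and 6, where the 13 erythroid markers summed to 2348, 3295 and 3240 CPM. Normal Nes-GFP high replicate 1, with 2732 CPM of these markers, had 130.6 CPM of Klf1. The study's methods add Ter119 to the sort, which the labels do not name, and the part of erythroid RNA in the Klf1 level was not tested. Of the related SP factors, 7 were counted and 5 passed the filter. Sp3 had the highest mean, 93.7 CPM, and Sp7 (osterix), the osteoblast factor, ranged from 1.20 to 156.3 CPM. Sp4 had the smallest adjusted p for AML in Nes-GFP high cells, 0.403 by edgeR. It held 49.9 and 0.209 CPM in the AML and 0 and 0.709 CPM in the normal libraries of these cells, which overlap. Sp1 ranged from 0.126 to 33.6 and Sp2 from 0.993 to 90.7 CPM. Sp6 and Sp9 reached 0.275 and 2.48 CPM at most.

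The partners and reported targets of these factors gave no call by edgeR, which called 0% of all genes. DESeq2 called 1 of the 14 coregulators lower in AML than in normal Nes-GFP high cells, against 9.59% of all genes called there. It called 1 lower in high than in low cells of AML mice, against 6.82% of all genes. In AML against normal Nes-GFP low cells and in high against low cells of normal mice it called none. Of 14 coregulators, 8 had a higher and 6 a lower fitted level in AML Nes-GFP high cells, and 6 and 8 in AML Nes-GFP low cells. Ep300, an acetyltransferase that Kruppel-like activators recruit, had 0.867 and 1.67 CPM in the AML libraries of Nes-GFP high cells, 1.39 and 65.0 CPM in the normal ones and 73.2 to 141.2 CPM in AML Nes-GFP low cells (edgeR adjusted p of 0.356 for high against low cells in AML mice). Ctbp1, the partner of Klf3, had a mean of 236.1 CPM over all libraries. Of 14 reported targets, 7 had a higher, 6 a lower and 1 an equal fitted level in AML Nes-GFP high cells, and 7 higher and 7 lower in AML Nes-GFP low cells. Cdkn1a, the cell cycle inhibitor reported as a target of Klf4 and Klf6, held 478.9 and 254.6 CPM for AML, and 401.3 and 258.3 CPM for normal mice, in Nes-GFP high cells. S1pr1, a sphingosine phosphate receptor reported as a target of Klf2, held 59.3 and 636 CPM for AML, and 4.92 and 121.3 CPM for normal mice, in the same cells, and its order over these libraries was not that of Klf2.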

How the data were processed

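Nes-GFP+ BMSC RNA was amplified with the Smart-seq2 protocol and sequenced. The authors trimmed reads (Trim Galore 0.4.1 in the submitters' notes), mapped them to mm10 by TopHat2 2.1.0, and obtained gene counts from featureCounts (Ensembl 86). The deposited values are whole-number counts without normalization. Of 16 library columns, 2 map to no sample used here. Counts carry no molecular identifiers, so replicate spread, not counting error, limits precision. Nothing states that all replicates are separate mice.

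Samples were grouped by their labels. edgeR 4.0.16 (R 4.3.3) was fitted to all 14 libraries and 4 groups with TMM and filterByExpr (minimum count 10), with its quasi-likelihood test and Benjamini-Hochberg adjustment over all genes, two-sided. CPM per kilobase used union exon lengths of GENCODE M21 (GRCm38). Correlations are Spearman coefficients, on log2(CPM + 1) or on summed CPM. Alternatives were DESeq2 1.42.0, limma voom 3.58.1, other size factors and filters, compared groups alone, a replicate block and libraries left out. The fit was tested on simulated data. No library was a copy of another over all 91 pairs (chi-square per degree of freedom of at least 89.7). The genes named are the 9 members, the other KLF and SP factors, Nes, the leading genes of each list and the 10 most like Klf6 (with ties). Of the latter, 1 gene is not reported here. Lepr, the other stromal and lymphoid markers named, the summaries of the stromal markers other than their sum and the motifs were chosen after values were seen. The members and lists were chosen with earlier results of these data known.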

Additional observations from a re-analysis of the deposited data

Results flagged for a closer look

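In 28 sets of 4 to 6 libraries of 1 group, over 15 Kruppel-like factors, the highest or lowest library was compared with the others by Dixon's ratio of gap to range, and 3 were set apart. Chance would set apart about 1 in 20 such sets if the values were normally distributed. The ratio was taken on CPM without a log scale, so that this rate need not hold and the flags are a description. Klf15 stood at 71.1 CPM in AML Nes-GFP low replicate 2, against 10.3 CPM in the next library of the group. Klf1 stood at 392.0 CPM in AML Nes-GFP low replicate 4, against 1.11 CPM in the next library, and erythroid markers summed to 2348 CPM in that library. Klf5 stood at 13.9 CPM in AML Nes-GFP low replicate 3, against 0.652 CPM in the next library, and myeloid markers summed to 95650 CPM there.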

How the results depend on the processing

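With DESeq2 the genes called numbered 1591 (952 higher, 639 lower) for AML in Nes-GFP high cells, 149 (51 and 98) in Nes-GFP low cells, 1732 (117 and 1615) for high against low cells in normal and 1103 (120 and 983) in AML mice, and 770 (501 and 269) for the difference of the AML effects, where edgeR called 0. With a mean of at least 10 CPM as filter 1 gene was called for AML in Nes-GFP high cells, and with limma voom 1 for high against low cells in AML mice. Leaving out 1 library gave 0 to 194 genes for AML in Nes-GFP high cells, 0 to 189 and 0 to 1 for high against low cells in normal and AML mice and 0 to 144 for the difference. The counts of 194, 189 and 144 arose without normal Nes-GFP high replicate 2. Klf6 kept its direction in each of 23 alternatives in each of the 4 comparisons, from -0.93 to -0.60 in AML Nes-GFP high and from -0.97 to -0.57 in AML Nes-GFP low cells. Its difference of high from low cells in normal mice was 0.182 with a replicate block, against 0.57 without it, and the block changed no call. Whether same-numbered libraries come from the same mice is not stated. Their deviations from group means correlated at -0.16 to 0.37. This cannot decide it, since such deviations mirror each other in groups of 2 libraries. Without AML Nes-GFP high replicate 1, Klf2 in high against low cells of AML mice ran to -0.642 (1.41 without replicate 2), and the AML difference of Klf13 between populations ran from -5.51 to 0.445 over left-out libraries. The cause was not tested. In Nes-GFP high cells, with 2 libraries per state, the AML difference of 6 of the 9 members changed sign without 1 library.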
